A study of Arabidopsis thaliana with 9 samples.

Results

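The genes described here are those carried by the chloroplast genome of Arabidopsis thaliana, measured in poly(A)-selected RNA from whole seedlings. They were taken as every gene model whose identifier starts with ATCG and that held at least 10 read pairs summed over 9 libraries. This gave 98 of the 133 ATCG models, out of 33602 gene models in all. Of the 98, 80 passed the filter on low counts and entered the statistical tests, and 18 did not. The 18 held 11 to 58 pairs each and comprised 8 models of duplicated sequence, 4 tRNA genes, psbN, rps16 and 4 models without a match. Just inside the limit lay the 2 models of the 23S ribosomal RNA with 11 pairs each, and just outside it the tRNA gene ATCG00460 with 8.

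The libraries came from seedlings grown in vitro in 3 groups of 3 biological replicates. The 35S-ASCO seedlings carry an overexpression construct for AT1G67105, the gene of the long noncoding RNA ASCO, under a strong constitutive viral promoter (labelled overexpression and promoter trap). The seedlings labelled RNAi-ASCO carry an RNA interference construct against the same gene (labelled knock-down by siRNA). The wild-type (WT) seedlings carry neither. All 35S-ASCO and WT libraries, and replicate 3 labelled RNAi-ASCO, are labelled 16 days old at Boyes stage 1.04, while the label of the other 2 RNAi-ASCO replicates (1 and 2) gives 4 days. The labels do not give the number of independent transgenic lines or of seedlings pooled per library. The series compares each transgenic line with WT and asks about splicing regulation by ASCO, whereas the counts are per gene model.

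AT1G67105 averaged 3616 ± 67.1 CPM in 35S-ASCO, 19.7 ± 3.01 CPM in the RNAi-labelled libraries and 4.22 ± 2.09 CPM in WT (SD, n = 3 each; CPM here are pair counts relative to library size after TMM scaling). The count on this gene model was therefore not lower in the group labelled as its knock-down, and the libraries of that group are called RNAi-labelled throughout. Whether RNA of the RNA interference construct was counted on this model was not tested. Between 27044702 and 126355312 pairs were counted per library, so that 3 pairs correspond to between 0.0237 and 0.111 CPM. Leaf genes of the nucleus marked the tissue as green seedling: 15 shoot markers held 29597 to 35077 CPM without TMM scaling and 8 root markers 2699 to 3378, while 4 seed storage markers held at most 0.296.

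The chloroplast keeps a small genome of bacterial origin that encodes core subunits of both photosystems, the cytochrome b6f complex, the ATP synthase, the NDH complex (an NADH dehydrogenase-like complex of cyclic electron flow) and the large subunit of Rubisco, together with part of its own ribosome and RNA polymerase. A bacterial-type polymerase, built from plastid-encoded core subunits and nuclear-encoded sigma factors, transcribes most photosynthesis genes, and phage-type polymerases encoded in the nucleus transcribe others. Most genes are read as long polycistronic RNAs that nuclear-encoded RNA-binding proteins cut, edit and protect. Unlike nuclear messengers, chloroplast RNAs carry no stable poly(A) tail, and A-rich tails there mark RNA for decay. Poly(A) selection therefore keeps little of this RNA, and the levels below are those of the fraction that passed the selection.

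The deposited files give no gene symbols. Symbols were assigned by comparing each model's length with the plastid genes of the RefSeq annotation of assembly TAIR10.1: 67 of the 98 genes had a unique length match, 13 more were resolved by their neighbours, 10 could be placed only as tRNA genes, and 8 had no match and are called by their identifiers. The 57 uniquely matched anchors were in the same order in both sources in all 56 neighbouring pairs.

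Chloroplast-encoded genes took a small part of the counted pairs. Summed, they held 388, 431 and 427 raw CPM (the share of counted pairs, without TMM scaling) in 35S-ASCO replicates 1 to 3, 442, 425 and 400 in the RNAi-labelled libraries, and 552, 398 and 415 in WT. The group means were 415 ± 23.7 in 35S-ASCO, 422 ± 20.8 in the RNAi-labelled libraries and 455 ± 84.7 in WT (SD, n = 3 each), and all 3 groups overlapped. A single library, WT replicate 1, stood above the other 8. Mitochondria-encoded models, which poly(A) selection also depletes, held 28.5 to 36.8 raw CPM, again with the highest value in WT replicate 1.

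WT replicate 1 was high for nearly the whole chloroplast set. It was the highest of the 9 libraries for 63 of the 80 tested genes, and its level was above the median of the other 8 libraries for 77 of 80, with a median ratio of 1.45. The ratio differed by class: its median was 1.85 over 9 tRNA genes, 1.66 over 16 ribosomal protein genes, 1.44 over 9 NDH genes, 1.40 over 14 photosystem II genes and 1.15 over the 4 RNA polymerase genes. The rpoB gene, for the beta subunit of the plastid polymerase, stood at 1.02 times the median of the other 8 libraries, and rpoC1 at 0.86 times. The same library had the fewest counted pairs (27044702). Its shoot markers held 34366 raw CPM, against 29597 and 33682.5 in the other WT libraries, 30755 to 31833 in 35S-ASCO and 33091 to 35077 in the RNAi-labelled libraries. Its root markers held 2846, against 3357 and 3378 in the other WT libraries, 3099 to 3274 in 35S-ASCO and 2699 to 2814 in the RNAi-labelled libraries. Most of the root sum came from 1 gene, PYK10. That gene stood at 2726 TMM-scaled CPM in WT replicate 1 and at 3165 and 3268 in the other WT libraries. Whether depth, tissue make-up or selection of RNA played a part was not tested. Log2 fold changes over WT are also given without this library below.

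**Figure D1:**
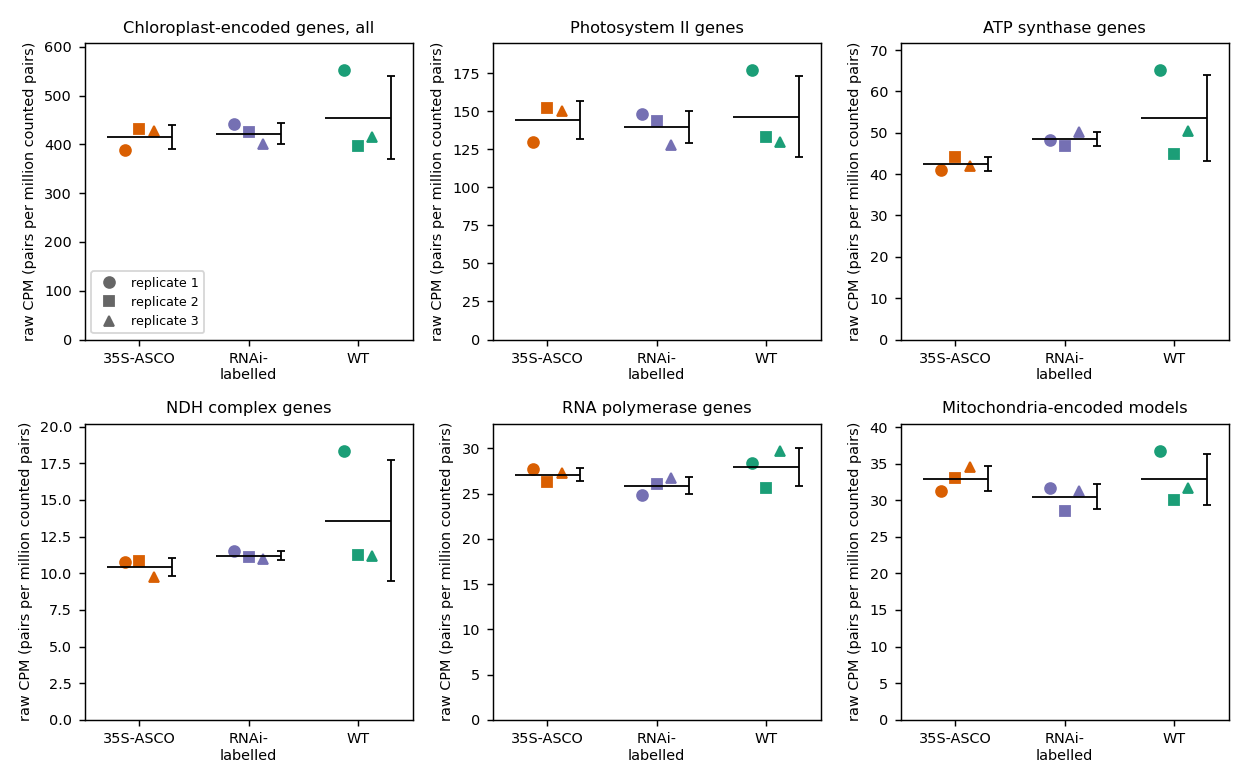
Read pairs of chloroplast-encoded genes, of 4 classes among them and of mitochondria-encoded models, as raw CPM (vertical axes, from 0), by group and replicate; lines are group means and bars the SD over 3 libraries. WT replicate 1 lies above all other libraries in 5 of the 6 panels and the groups overlap for all chloroplast-encoded genes together.

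Photosystem II genes made up 33.4% of all chloroplast pairs (15 genes), the Rubisco gene rbcL 14.4%, photosystem I genes 11.7% (5 genes), ATP synthase genes 11.04% (6 genes) and ribosomal protein genes 9.72% (21 genes). RNA polymerase genes followed with 6.49% (4 genes), cytochrome b6f genes with 3.24% (6 genes) and NDH genes with 2.68% (9 genes). The 8 other protein genes held 3.33%, the unmatched models 3.06% and 13 tRNA genes 0.963%. The functional classes leave out the unmatched models, so a class may lack members that are among them. The unmatched ATCG01050, by identifier between ccsA and psaC, held 4742 pairs. The 9 NDH genes held 6375 pairs and the 6 cytochrome b6f genes 7689, so the order of these classes could depend on the matching. The psbA gene, for the D1 protein of the photosystem II reaction centre, alone held 45269 of 237568 pairs.

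Per kilobase of gene model, the highest levels belonged to a few short genes and to the main photosynthesis genes. Averaged over the 9 libraries, rpl32 (a protein of the large ribosomal subunit) stood at 77.7 CPM per kilobase and psbA at 76.4. They were followed by psaJ (a small photosystem I subunit) at 54.7, rbcL at 42.5, psbJ at 27.6 and psbI at 25.8 (both small photosystem II subunits). Rubisco and the D1 protein are made in large amounts in leaves. By class, the median level of the tested genes was 11.7 CPM per kilobase for photosystem II, 10.7 for ATP synthase, 7.43 for photosystem I, 5.68 for cytochrome b6f, 4.75 for ribosomal proteins, 2.60 for RNA polymerase and 2.27 for NDH. Unmatched models are in none of these classes.

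**Figure D2:**
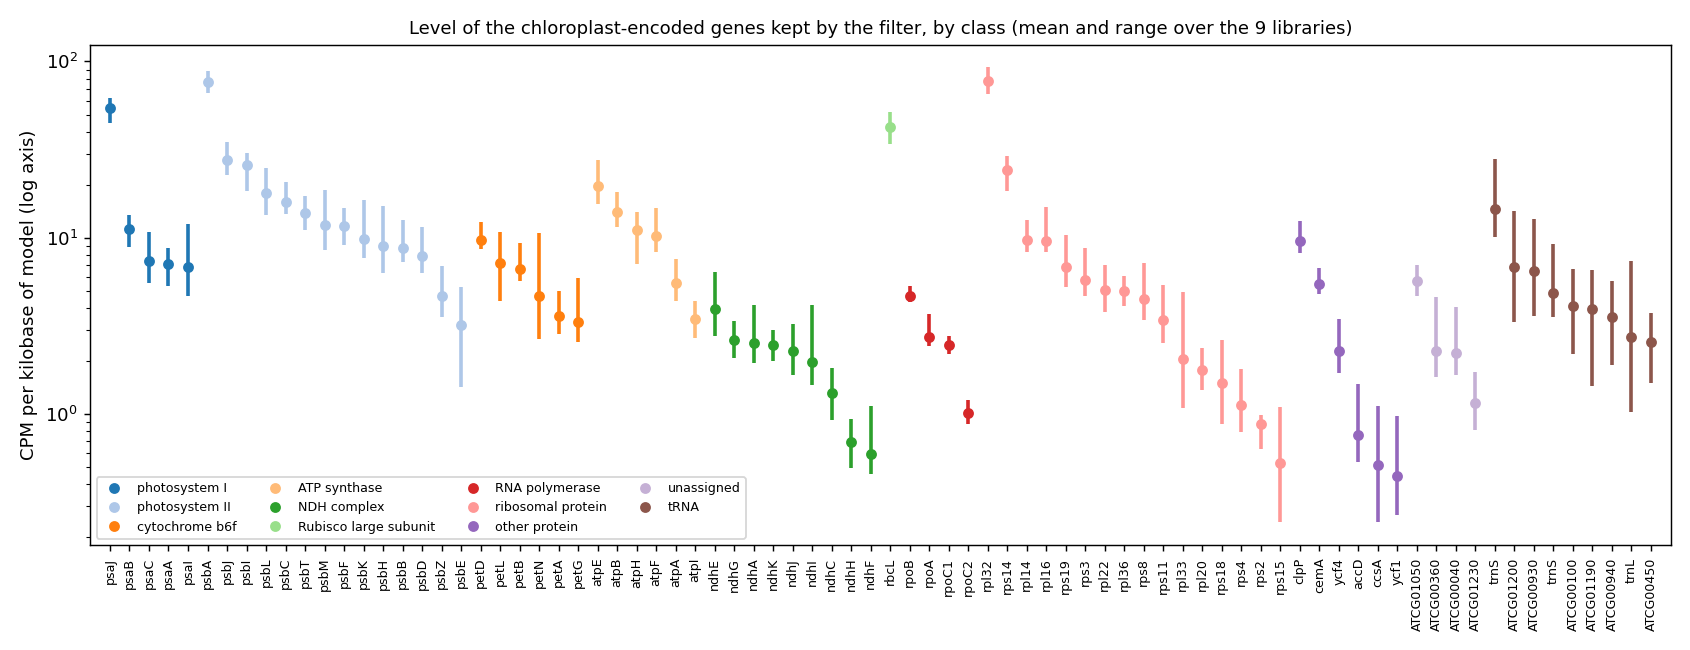
Level of each of the 80 tested chloroplast-encoded genes in TMM-scaled CPM per kilobase of gene model (logarithmic vertical axis), grouped by class; points are means over all 9 libraries and lines run from the lowest to the highest library. Photosynthesis genes sit mostly above NDH and RNA polymerase genes, and rpl32, psbA, psaJ and rbcL are the highest.

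Poly(A) selection captures RNA by stretches of A, and coding sequences can hold such stretches too. The sequences of 3 genes among those with the highest level per kilobase are therefore shown whole, beside windows of the 4 genes with the longest runs of A. They are from the plastid genome of RefSeq assembly TAIR10.1, 5′ to 3′ on the coding strand, and capitals mark the longest run of A (the first where 2 are equal).
rpl32: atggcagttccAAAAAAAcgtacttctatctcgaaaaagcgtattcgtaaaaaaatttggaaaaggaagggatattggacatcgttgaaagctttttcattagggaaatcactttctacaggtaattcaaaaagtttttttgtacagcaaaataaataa
psaJ: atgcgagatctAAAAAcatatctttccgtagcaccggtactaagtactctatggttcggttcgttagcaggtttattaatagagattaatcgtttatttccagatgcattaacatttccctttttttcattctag
psbJ: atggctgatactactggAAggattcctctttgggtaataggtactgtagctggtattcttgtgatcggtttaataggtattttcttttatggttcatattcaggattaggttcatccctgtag
rpoA: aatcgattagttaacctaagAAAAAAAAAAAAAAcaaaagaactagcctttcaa
rpoC2: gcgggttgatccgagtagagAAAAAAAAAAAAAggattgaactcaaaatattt
accD: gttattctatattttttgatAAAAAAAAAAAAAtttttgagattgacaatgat
ycf1: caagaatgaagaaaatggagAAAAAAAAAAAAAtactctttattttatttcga
The whole genes lie at plastid:113449-113607 and plastid:66929-67063 on the plus strand (rpl32 and psaJ) and plastid:63538-63660 on the minus strand (psbJ). The windows, with 20 bases on either side of the run, lie at plastid:78075-78128 (rpoA), plastid:17906-17958 (rpoC2) and plastid:125848-125900 (ycf1) on the minus strand and at plastid:57352-57404 (accD) on the plus strand. All are exonic coding sequence.

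The genes with the longest coding A-runs were not the ones with the highest levels. The run was 14 bases in rpoA, and 13 in rpoC2, accD (a subunit of acetyl-CoA carboxylase) and ycf1 (a component of the protein import machinery). Their levels were 2.74, 1.01, 0.759 and 0.443 CPM per kilobase. The run was 4 bases in psbA, 5 in rbcL and psaJ, 7 in rpl32 and 2 in psbJ. Over the 67 tested protein-coding genes with a sequence, the 12 with a run of at least 8 bases had a median level of 1.87 CPM per kilobase, the 34 with 5 to 7 bases had 6.23, and the 21 with at most 4 bases had 7.20. Within the 12, rps14 with a run of 8 bases reached 24.1 and atpB with a run of 10 reached 13.9. Across these genes, which share libraries and are not independent replicates, the Spearman correlation of level was -0.37 with the longest run, -0.32 with model length and 0.32 with GC content (n = 67). The 12 genes with the longest runs were also long, with a median of 1229 bases against 222 bases for the 21 with the shortest. Tails and untranslated regions lie outside these models.

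Most models with a near-identical second copy held almost no pairs. Among the models matched to a sequence, 20 had at least 90% of their 50-base windows elsewhere in the genome. These 20 held 0 to 30 pairs each over all 9 libraries and none passed the filter. The 74 models with fewer shared windows had a median of 979.5 pairs, and 70 passed. Each of the 2 models of the 23S ribosomal RNA held 11 pairs, the 2 of rpl2 held 30 and 22, and the 2 of ycf2 held 12 and 13. The 2 models of ycf1 show the same within a gene. The short copy ATCG01000 (1032 bases), of whose windows 99.8% occur elsewhere, held 2 pairs, while the full copy ATCG01130 (5361 bases, 18.5%) held 1178. Per the file headers, reads with equally good best alignments were removed, so these values are not levels of the RNAs. Another 4 tRNA models, placed by class only and without a matched sequence, lie by identifier between the 2 copies of the 16S and 23S ribosomal RNA genes, a region that the plastid genome holds in inverted repeat. They form a pair of 72 bases (ATCG00930 and ATCG01200, with 252 and 266 pairs) and a pair of 73 bases (ATCG00940 and ATCG01190, with 137 and 153 pairs), and all 4 passed the filter.

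Neighbouring genes of the same transcription unit differed in level, and 17 of the 19 steps between neighbours ran in the same direction in all 9 libraries. In the unit of psaA, psaB (the photosystem I core) and rps14, mean levels were 7.07, 11.2 and 24.1 CPM per kilobase from upstream to downstream. The unit of psbE, psbF, psbL and psbJ, which encode cytochrome b559 and small photosystem II subunits, stood at 3.18, 11.6, 17.9 and 27.6. Each of these 5 steps was upward in 9 of 9 libraries. The same held for psbD to psbC (photosystem II D2 and CP43 proteins; 7.86 and 16.0), psbK to psbI (9.86 and 25.8), atpB to atpE (13.9 and 19.7), atpI to atpH (3.45 and 11.1) and ndhC to ndhK (1.32 and 2.47). The next step in the NDH unit, from ndhK to ndhJ (2.27), was upward in 4 of 9 libraries, with a ratio of 0.634 to 1.29.

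The polymerase unit ran the other way: rpoB stood at 4.68, rpoC1 at 2.46 and rpoC2 at 1.01 CPM per kilobase, and both steps were downward in 9 of 9 libraries. In the psbB unit the level was 8.76 in psbB (CP47), 13.9 in psbT, 8.95 in psbH, 6.69 in petB and 9.77 in petD, with each step in 1 direction in 9 of 9 libraries. The psbN gene, which lies inside that unit on the opposite strand, stood at 0.605. In the atpA unit the step from atpH to atpF (11.1 and 10.2) was upward in 2 of 9 libraries, with a ratio of 0.797 to 1.18, and the step from atpF to atpA was downward in 9 of 9 (10.2 and 5.54). The petL, petG, psaJ, rpl33 and rps18 genes lie side by side and stood at 7.20, 3.34, 54.7, 2.04 and 1.51. Per the file headers, a pair counts where both mates align to the same model. The short psaJ model (135 bases) nevertheless held 4225 pairs. The tRNA model ATCG00940 (73 bases) held 137 pairs and 137 single reads, fewer reads than both mates of each pair would give. The parts of this rule and of model length in these steps, and in the levels of short models, were not tested. Whether the counting used strand is not given in the sources used here.

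**Figure D3:**
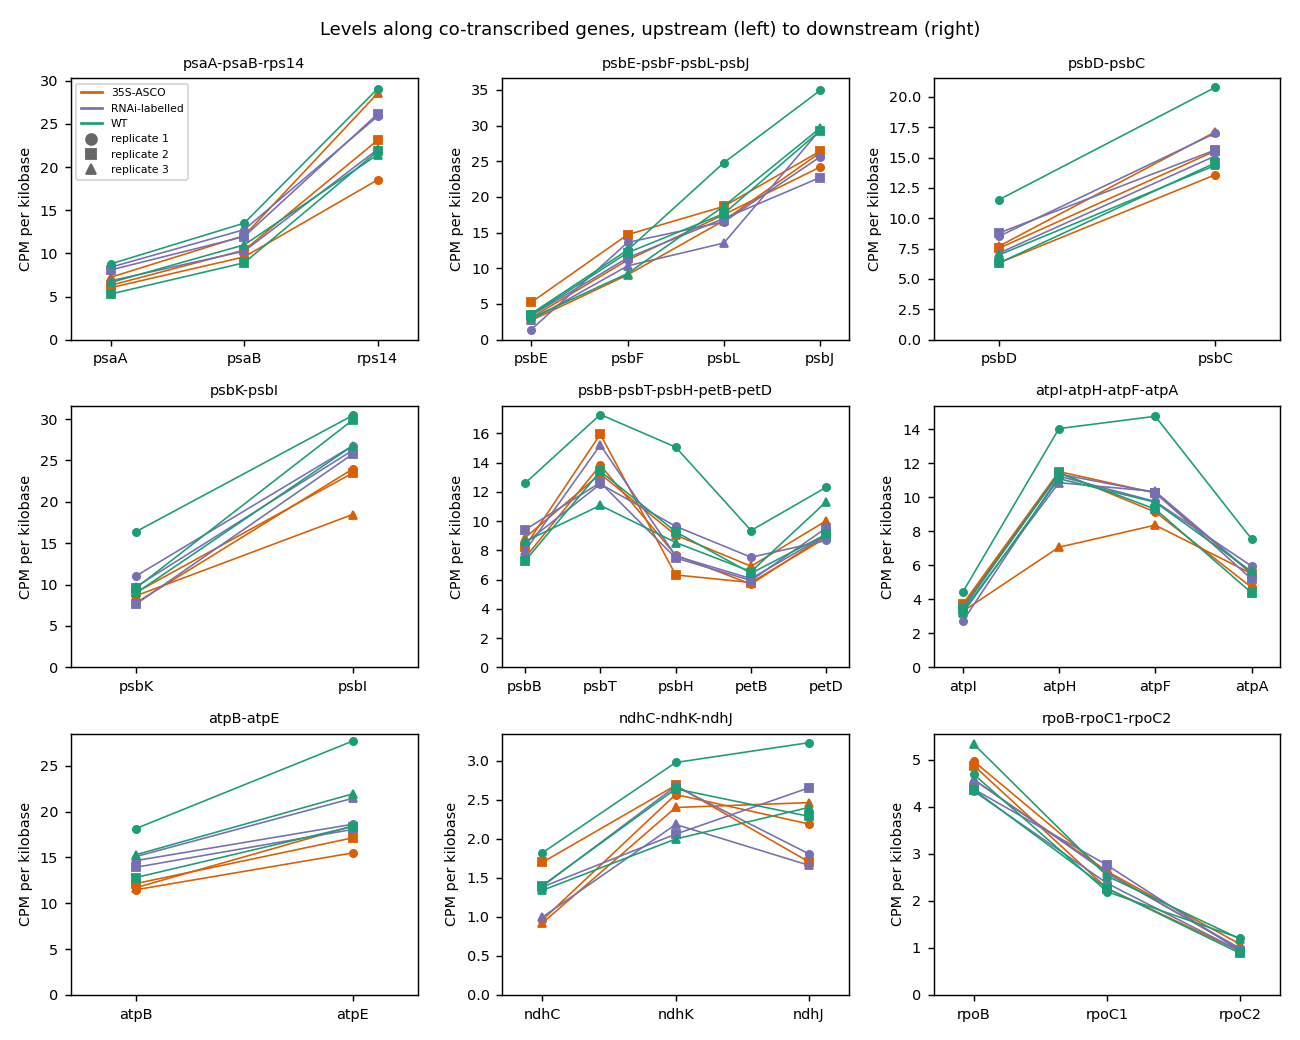
Level in TMM-scaled CPM per kilobase of gene model (vertical axes, from 0) of genes in 9 co-transcribed groups, ordered from upstream to downstream; each line is a library, coloured by group. Libraries of all 3 groups run upward along psaA-psaB-rps14 and downward along rpoB-rpoC1-rpoC2, while they differ in direction from ndhK to ndhJ and from atpH to atpF.

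None of the 80 tested chloroplast-encoded genes differed between 35S-ASCO and WT at an adjusted p under 0.05 (edgeR quasi-likelihood test, Benjamini-Hochberg over 22719 genes), where 1.67% of all genes tested did. At an unadjusted p under 0.05 there were 8 genes (10%), all lower in 35S-ASCO. Over all genes tested 17.4% had such a p in either direction, with 1576 of 22719 lower and 2381 higher. At an adjusted p under 0.05 DESeq2 called 1 of the 80, atpB, where it called 1315 of all 22719 genes. The median log2 fold change over the 80 was -0.25, with 66 below 0 and 14 above, beside -0.01 over all genes. Without WT replicate 1 that median was -0.05. The 3 values of 35S-ASCO lay wholly below those of WT for 12 genes and wholly above for 0, against 10% below and 11.8% above over all genes. The 12 were atpB, ndhA and ndhE, the photosystem II genes psbI, psbJ and psbM, the ribosomal protein genes rpl14, rpl22, rpl32 and rpl33, the tRNA gene ATCG00100 and the unmatched ATCG00040. By class, the median log2 fold change was -0.45 for tRNA, -0.40 for NDH, -0.27 for ATP synthase, -0.25 for ribosomal protein, -0.18 for photosystem II and -0.06 for both photosystem I and RNA polymerase genes. The medians without WT replicate 1 were -0.16 for tRNA, -0.12 for NDH, -0.11 for both ATP synthase and ribosomal protein, 0.05 for photosystem II, 0.08 for photosystem I and -0.03 for RNA polymerase genes, so that both their order and 2 of their signs rested in part on that library. The sign also turned for other protein genes (-0.28 with all libraries and 0.05 without it) and unmatched models (-0.27 and 0.05). Cytochrome b6f genes stood at -0.23 with all libraries and -0.10 without it.

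The gene nearest the threshold was atpB, for the catalytic beta subunit of the ATP synthase. It stood at 17.2, 18.2 and 17.5 CPM in 35S-ASCO, 21.9, 20.9 and 22.6 CPM in the RNAi-labelled libraries and 27.2, 19.2 and 22.9 CPM in WT. All 3 values of 35S-ASCO were below all 6 others. The log2 fold change over WT was -0.38 (SE 0.11, 95% interval -0.61 to -0.15, adjusted p = 0.101 by edgeR). DESeq2 gave an adjusted p of 0.0241 for the same difference, and edgeR without WT replicate 2 gave 0.0266, so the call for atpB rests on the method and on that library. Its downstream neighbour atpE, for the epsilon subunit, stood at 6.18, 6.84 and 7.36 CPM in 35S-ASCO and 11.1, 7.33 and 8.76 CPM in WT, with a log2 fold change of -0.40 (SE 0.14, adjusted p = 0.194 by edgeR). The 2 groups overlapped for atpE. Without WT replicate 1 the log2 fold changes were -0.26 for atpB and -0.24 for atpE. The 6 ATP synthase genes had log2 fold changes from -0.40 to -0.04.

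For psbI the level was 2.66, 2.61 and 2.05 CPM in 35S-ASCO and 3.38, 3.32 and 2.97 CPM in WT, with a log2 fold change of -0.40 (SE 0.13, adjusted p = 0.157 by edgeR). The groups did not overlap, and the value was -0.37 without WT replicate 1. The unmatched model ATCG00040 stood at 2.64, 2.63 and 3.05 CPM in 35S-ASCO and 6.39, 3.08 and 3.91 CPM in WT, with a log2 fold change of -0.64 (SE 0.24, adjusted p = 0.201 by edgeR) that was -0.33 without WT replicate 1. Without WT replicate 2, edgeR called 3 genes lower in 35S-ASCO, namely atpB, ycf1 and the unmatched ATCG01050. That fit called 498 of 22748 genes in either direction.

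For the genes with the highest levels no difference passed the threshold. The level of psbA was 76.3, 93.9 and 88.3 CPM in 35S-ASCO and 90.4, 72.3 and 71.4 CPM in WT, with a log2 fold change of 0.15 (95% interval -0.10 to 0.39). For rbcL it was 58.6, 69.2 and 64.2 CPM in 35S-ASCO and 74.5, 56.7 and 57.0 CPM in WT, with a log2 fold change of 0.03 (95% interval -0.24 to 0.30). For rpl32 it was 11.4, 10.5 and 10.4 CPM in 35S-ASCO and 14.7, 11.9 and 11.9 CPM in WT, with a log2 fold change of -0.24 (95% interval -0.48 to 0.00) and no overlap. The groups overlapped for psbA and rbcL. For psaJ the level was 7.32, 8.01 and 7.32 CPM in 35S-ASCO and 8.41, 8.09 and 6.08 CPM in WT, with a log2 fold change of 0.01 (95% interval -0.29 to 0.31). For psbJ it was 2.98, 3.25 and 3.23 CPM in 35S-ASCO and 4.30, 3.60 and 3.65 CPM in WT, without overlap, with a log2 fold change of -0.28 (95% interval -0.57 to 0.00). Without WT replicate 1 the log2 fold changes were 0.26 for psbA (adjusted p = 0.326 by edgeR), 0.17 for rbcL, -0.14 for rpl32, 0.08 for psaJ and -0.21 for psbJ.

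Set against the chloroplast total in place of the whole library, psbA took 19.7%, 21.6% and 20.6% of chloroplast pairs in 35S-ASCO, 19.1%, 19.1% and 17.5% in the RNAi-labelled libraries and 16.5%, 18.7% and 17.2% in WT. Every 35S-ASCO value lay above the 6 others. Of the 80 tested genes, 3 had shares wholly above WT in 35S-ASCO (3.75%; psbA, rbcL and the unmatched ATCG01230) and 16 wholly below (20%), atpB and atpE among them. For the RNAi-labelled libraries over WT these counts were 2 above and 2 below. For 35S-ASCO over the RNAi-labelled libraries they were 4 above and 6 below. Shares of the chloroplast total exist for chloroplast-encoded genes only, so no value over all genes can stand beside these counts. Shares sum to a fixed total, so a larger share of psbA and rbcL lowers the rest. This scaling was examined after the levels were seen, and no test was made on it.

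**Figure D4:**
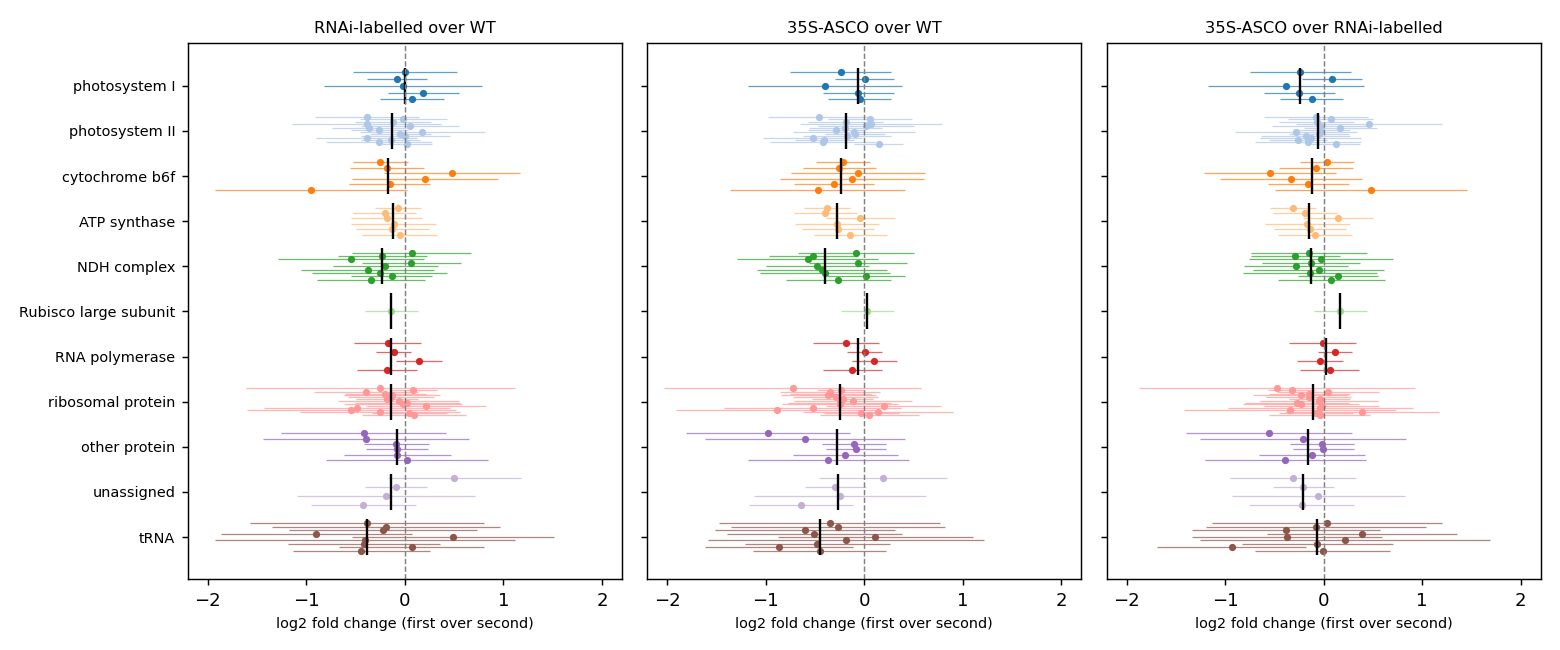
Log2 fold change of each tested chloroplast-encoded gene by class (horizontal axes, with 95% intervals from the edgeR fit) for the RNAi-labelled libraries over WT, 35S-ASCO over WT, and 35S-ASCO over the RNAi-labelled libraries; black lines are class medians. Most points lie left of 0 in all 3 panels and none passed the adjusted threshold.

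Between the RNAi-labelled libraries and WT, none of the 80 genes passed the threshold by edgeR, against 11.8% of all genes tested. DESeq2 also called 0 of the 80, where it called 3314 of all 22719 genes. By edgeR 0 had an unadjusted p under 0.05, against 27.5% of all genes tested. The median log2 fold change was -0.14, with 60 genes below 0 and 20 above. Without WT replicate 1 the median was 0.06, so its sign rested on that library. Only psbL had all 3 values below those of WT (15.5% of all genes), and 0 had all values above (16.9% of all genes).

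The smallest p belonged to petN, for a small subunit of the cytochrome b6f complex, which stood at 0.267, 0.328 and 0.241 CPM in the RNAi-labelled libraries and 0.955, 0.509 and 0.278 CPM in WT. The groups overlapped, and the log2 fold change was -0.95 (SE 0.44, adjusted p = 0.19 by edgeR). It was -0.54 without WT replicate 1. For psbL, a small photosystem II subunit, the level was 1.93, 1.99 and 1.58 CPM in the RNAi-labelled libraries and 2.90, 2.07 and 2.19 CPM in WT, with a log2 fold change of -0.36 (SE 0.17, adjusted p = 0.201 by edgeR). For petD, subunit IV of the cytochrome b6f complex, the level was 4.19, 4.61 and 4.38 CPM in the RNAi-labelled libraries and 5.95, 4.40 and 5.47 CPM in WT, with overlap and a log2 fold change of -0.25 (SE 0.13). The tRNA gene ATCG00930 stood at 0.446, 0.306 and 0.258 CPM in the RNAi-labelled libraries and 0.698, 0.286 and 0.921 CPM in WT, again with overlap, and its log2 fold change was -0.90 (SE 0.43). Without WT replicate 1 the values were -0.22 for psbL, -0.16 for petD and -0.83 for ATCG00930, which stood at -0.40 without WT replicate 3. Without WT replicate 2, edgeR called 2 genes lower, ATCG00930 and the unmatched ATCG01050. That fit called 2284 of 22748 genes in either direction.

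The means of psbA and rbcL differed between these groups by less than the spread of the libraries. For psbA the level was 85.4, 81.7 and 70.3 CPM in the RNAi-labelled libraries and the log2 fold change over WT was 0.02 (95% interval -0.23 to 0.27). For rbcL it was 62.4, 59.3 and 49.2 CPM, with a log2 fold change of -0.13 (95% interval -0.41 to 0.14). For both genes the library labelled 16 days was the lowest of the 3, and the values of the 2 libraries labelled 4 days were higher. For rpl32 the level was 14.7, 11.7 and 14.2 CPM with a log2 fold change of 0.09 (95% interval -0.16 to 0.33). The values without WT replicate 1 were 0.14 for psbA, 0.00165 for rbcL and 0.18 for rpl32. Since all WT libraries are labelled 16 days, labelled age and genotype cannot be told apart between WT and the 2 libraries labelled 4 days.

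Set directly against the RNAi-labelled libraries, 35S-ASCO also had 0 of 80 genes past the threshold by edgeR, against 6.75% of all genes. DESeq2 likewise called 0 of the 80, where it called 2205 of all 22719 genes. All 35S-ASCO libraries are labelled 16 days. Labelled age and genotype therefore cannot be told apart between them and the 2 RNAi-labelled libraries labelled 4 days. At an unadjusted p under 0.05 edgeR gave 3 genes (3.75%), all lower in 35S-ASCO. Over all genes 22.9% had such a p in either direction, with 2562 of 22719 lower and 2635 higher. The median log2 fold change was -0.08, with 62 genes below 0 and 18 above. The 3 values of 35S-ASCO lay wholly below for 7 genes (15.8% of all genes) and wholly above for 0 (15.6% of all genes).

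In this comparison rpl32 had a log2 fold change of -0.33 (SE 0.11, adjusted p = 0.109 by edgeR), atpB of -0.31 (SE 0.11, adjusted p = 0.116), the tRNA gene ATCG00100 of -0.93 (SE 0.34, adjusted p = 0.136) and psbI of -0.26 (SE 0.13, adjusted p = 0.282). For all 4 the 3 values of 35S-ASCO lay below the 3 labelled RNAi-ASCO. For ATCG00100 these were 0.158, 0.196 and 0.205 CPM in 35S-ASCO and 0.357, 0.240 and 0.448 CPM in the RNAi-labelled libraries. With only the 6 libraries of this comparison in the fit, atpB had an adjusted p of 0.0163, and without WT replicate 1 or WT replicate 2 it had 0.0482 and 0.0351.

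Standard errors were wider for these genes than over all genes tested. The median SE of the log2 fold change over the 80 genes was 0.23 for 35S-ASCO over WT, against 0.09 over all genes tested, and 0.24 against 0.09 for the RNAi-labelled libraries over WT. Between 35S-ASCO and WT the SE was 0.11 for psbA and 0.12 for rbcL, the 2 genes with the most pairs. The parts of counting error and of the spread between libraries in these errors were not tested.

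**Figure D5:**
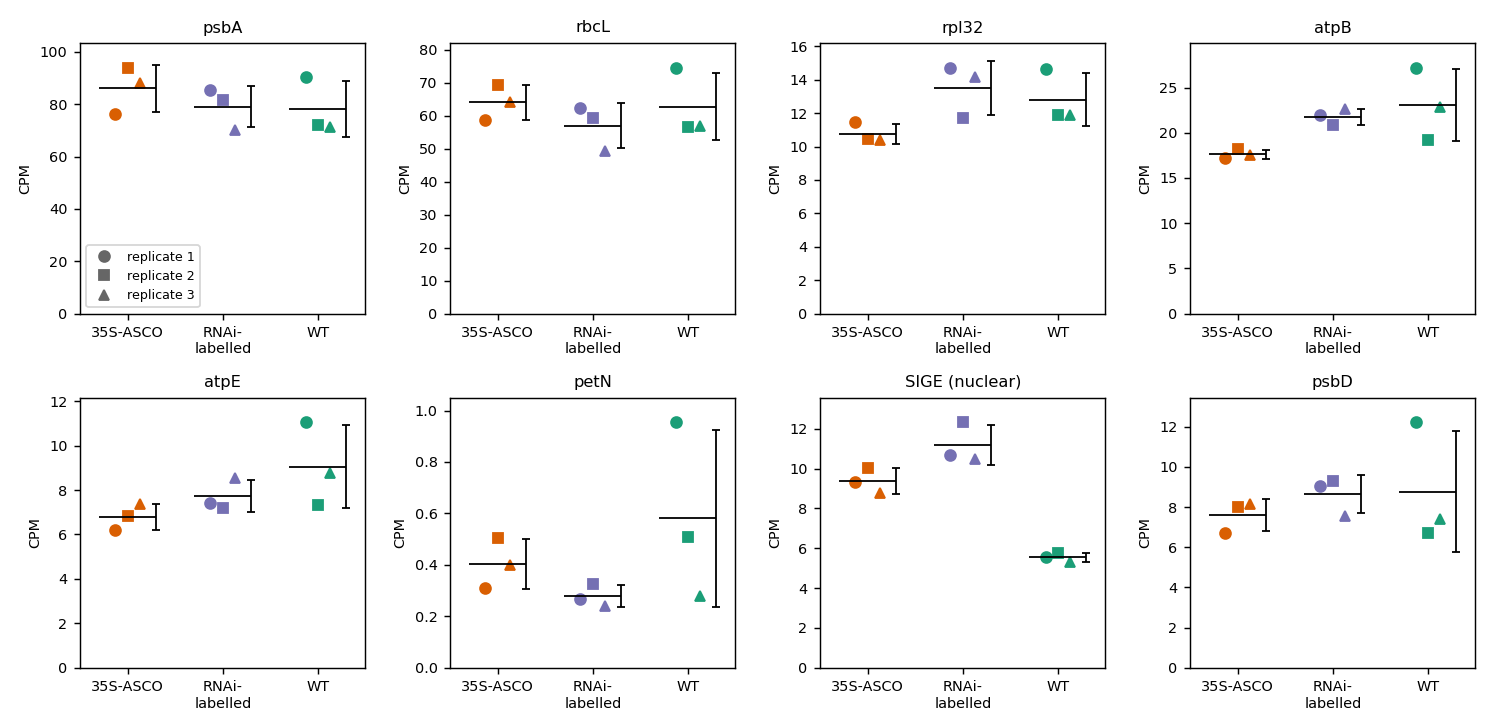
Level in TMM-scaled CPM (vertical axes, from 0) of 7 chloroplast-encoded genes and of the nuclear sigma factor gene SIGE in each library; lines are group means and bars the SD over 3 libraries. The 35S-ASCO values of atpB lie below those of both other groups, and SIGE is higher in 35S-ASCO and in the RNAi-labelled libraries than in WT while psbD overlaps between all groups.

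Most of the nuclear genes listed for chloroplast transcription and RNA turnover did not pass the threshold either. The lists held 43 genes: 6 sigma factors, 2 phage-type polymerases, 12 polymerase-associated proteins, 6 RNA decay proteins and 17 proteins of RNA stability, splicing and editing. All 43 were tested. In 35S-ASCO over WT 1 passed, higher, and 0 lower, where 1.36% of all genes were higher and 0.313% lower. In the RNAi-labelled libraries over WT 5 passed, all higher, where 6.96% of all genes were higher and 4.82% lower. In 35S-ASCO over the RNAi-labelled libraries 2 passed, both lower, where 3.20% of all genes were higher and 3.55% lower.

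The gene that passed in both lines over WT was SIGE, the sigma factor also known as SIG5, which responds to blue light and stress and directs the polymerase to the psbD promoter. It stood at 9.35, 10.03 and 8.76 CPM in 35S-ASCO, 10.7, 12.3 and 10.5 CPM in the RNAi-labelled libraries and 5.55, 5.74 and 5.33 CPM in WT. Neither line overlapped WT. The log2 fold change was 0.75 in 35S-ASCO (SE 0.09, adjusted p = 0.00999 by edgeR) and 1.01 in the RNAi-labelled libraries (SE 0.09, adjusted p = 0.000317 by edgeR). The first of these had an adjusted p of 0.05004 without WT replicate 1. Its chloroplast target psbD stood at 6.70, 7.99 and 8.17 CPM in 35S-ASCO, 9.04, 9.32 and 7.56 CPM in the RNAi-labelled libraries and 12.2, 6.70 and 7.40 CPM in WT. All groups overlapped for psbD, with log2 fold changes over WT of -0.18 (95% interval -0.63 to 0.27) in 35S-ASCO and 0.01 (95% interval -0.45 to 0.46) in the RNAi-labelled libraries. They were 0.11 in 35S-ASCO and 0.29 in the RNAi-labelled libraries without WT replicate 1.

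Another 4 of the listed genes rose in the RNAi-labelled libraries over WT. SIG4, a sigma factor that directs transcription of ndhF, had a log2 fold change of 0.38 (SE 0.07, adjusted p = 0.0102 by edgeR), while ndhF itself stood at -0.38 (95% interval -1.05 to 0.30). PGR3, a pentatricopeptide protein that binds and protects petL RNA, had 0.28 (SE 0.08, adjusted p = 0.0495 by edgeR), while petL stood at 0.21 (95% interval -0.53 to 0.95). CAF2, a factor for splicing of several plastid introns, had 0.21 (SE 0.04, adjusted p = 0.0138 by edgeR). CRR4, a protein needed for editing of an NDH transcript, had 0.70 (SE 0.19, adjusted p = 0.0446 by edgeR). CAF2 and CRR4 were also the 2 that passed as lower in 35S-ASCO over the RNAi-labelled libraries, at -0.24 and -0.75. PGR3 and CRR4 lost the threshold under most of the alternatives that leave out a library, for example without WT replicate 1 (adjusted p = 0.0920 and 0.0573 by edgeR). SIG4 stood at 0.37 and CAF2 at 0.21 without that library (adjusted p = 0.0426 for both by edgeR), ndhF at -0.00637 and petL at 0.51. The targets were set beside these genes after their values were seen. Without the 2 libraries labelled 4 days, SIGE alone of the 5 still passed over WT, with a single library left in that group. With all libraries in the fit, the nuclear shoot markers of the RNAi-labelled libraries over WT had a median log2 fold change of 0.25, with 11 of 15 above 0, 4 below and 6 past the threshold, all higher. The 8 root markers had a median of -0.22, with all 8 below 0 (from -1.04 to -0.00376) and 0 past the threshold. Summed, the shoot markers held 33091 to 35077 raw CPM in the RNAi-labelled libraries and 29597 to 34366 in WT, and their part in these results was not tested.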

How the data were processed

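Polyadenylated RNA of 9 libraries was selected and made into stranded paired-end libraries, per the labels' protocols. TAIR10, TopHat2 and Bowtie2 are named in the submitters' processing notes. The deposited files hold counts of read pairs and of single reads per gene model; per the file headers, a pair counts where both mates align to the same model, and reads with equal best and second-best alignment scores were removed. Pair counts were used as deposited.

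All gene models of all 9 libraries were fitted together with edgeR 4.0.16 in R 4.3.3 (filterByExpr by group, TMM scaling, quasi-likelihood F test, genotype as the only term), and p-values were adjusted over 22719 genes at a threshold of 0.05. Levels are TMM-scaled CPM, divided by model length where genes are compared. Alternatives were DESeq2 1.42.0, other scalings and filters, single-read counts, thinned counts, the replicate number as a block and leaving out each library. The scripts were tested on simulated data. Total counts ranged from 27044702 to 126355312 pairs; precision is that of counting pairs without molecular identifiers, so floors cover counting error only.

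The genes, lists, transcription units and tests were chosen with earlier results of these data known. Named were AT1G67105, psbA, rbcL, the 6 genes with the highest level per kilobase, the 4 with the smallest p per comparison where none passed, and up to 6 listed nuclear genes past the threshold per comparison with WT; other genes were named after their values were seen. Groups and replicate numbers came from the titles.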

Additional observations from a re-analysis of the deposited data

How the results depend on the processing

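The count of chloroplast-encoded genes past the threshold was 0 in all 3 comparisons under other scalings, other filters, single-read counts, thinned counts, a stricter p and a minimum fold. It became 1 for 35S-ASCO over WT with DESeq2 and 1 for 35S-ASCO over the RNAi-labelled libraries with only the 6 libraries compared, in both cases atpB. Among all genes these fits called 1315 of 22719 and 1802 of 22363. Leaving out each library gave 0 to 2 for the RNAi-labelled libraries over WT, 0 to 3 for 35S-ASCO over WT and 0 to 1 between the lines. Among all genes the same fits called 995 to 3025, 25 to 611 and 432 to 1928 in that order. The median log2 fold change of the tested genes then ranged from -0.25 to 0.06, from -0.36 to -0.05 and from -0.144 to -0.0551 in the same order of comparisons. The replicate number as a block gave 0 chloroplast-encoded genes in each comparison, with 2438, 342 and 1355 genes called among all. Libraries with the same number did not deviate together (correlations of -0.02 to 0.08), so the numbers were not taken as pairs.

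The chloroplast share without psbA was 330 raw CPM in 35S-ASCO, 344 in the RNAi-labelled libraries and 376 in WT, and of all parsed pairs it was 372 in 35S-ASCO, 386 in the RNAi-labelled libraries and 411 in WT. Listed nuclear genes that passed in the RNAi-labelled libraries over WT numbered 3 with upper-quartile scaling or only the 6 libraries, 1 without the 2 libraries labelled 4 days, at an adjusted p under 0.01 or with a minimum log2 fold of 1, and 2 to 5 leaving out a library. In 35S-ASCO over WT they numbered 0 at that fold and 0 to 5 leaving out a library (0 without WT replicate 1 and 5 without WT replicate 2). Between the lines they numbered 4 with DESeq2 or only the 6 libraries, 1 with thinned counts, 0 without the 2 libraries labelled 4 days, at the stricter p or at that fold, and 0 to 3 leaving out a library.

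Among the genes named by the rule given above, signs near 0 turned for 3. Over all 80 tested genes, more signs turned without WT replicate 1. In the RNAi-labelled libraries over WT, 11 of 16 ribosomal protein genes were then above 0, against 5 with all libraries. For photosystem II genes it was 8 of 14, against 4, and for RNA polymerase genes 1 of 4 in both fits. Over WT in the RNAi-labelled libraries, psbA was -0.15 and psaJ 0.0314 without the 2 libraries labelled 4 days, and leaving out a library gave -0.0378 to 0.137 for psbA, -0.204 to 0.00165 for rbcL and -0.212 to 0.0217 for psaJ. In 35S-ASCO over WT, psaJ was -0.0181 with upper-quartile scaling and -0.00984 with thinned counts, and leaving out a library gave -0.130 to 0.0812 for psaJ and -0.0391 to 0.168 for rbcL. The causes were not tested. Counting error is largest for genes with few pairs.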
